A study of Homo sapiens with 95 samples.

Results

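The comparison described here is that of AALE cells made to overexpress PIK3CA with AALE cells carrying the HcRed control vector, both treated with the solvent DMSO. It rests on 6 of the 95 samples of the series, 3 of each line, and on the 14278 genes of the 27978 listed whose mean count over those 6 samples was above 1. AALE cells derive from human bronchial epithelium and were immortalized. The series profiled 8 AALE lines under 4 treatments with sparse full length (SFL) sequencing, which barcodes the samples, pools them and gives each one few reads. The other lines carried CRISPR knockouts of FAT1 or CDKN2A, the GFP plasmid that served as control for the knockouts, or overexpression of NRF2, FGFR1 or NRG1. Besides DMSO the cells received condensate of cigarette smoke (CSC, 24 μg/ml), the hydrocarbon benzo(a)pyrene (BaP, 173 μM) or the tobacco nitrosamine NNK (490 μM). The PIK3CA and HcRed cells were thus both immortalized, both carried an overexpression vector and both had grown to confluency in 24-well plates before the medium with DMSO was added. The sources used here do not say whether the PIK3CA sequence was wild type or mutant, which promoter drove it, or whether a line was 1 clone, and the p-values measure the spread between the 3 samples of a line, which the study calls biological replicates.

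PIK3CA encodes p110-alpha, the catalytic subunit of a class I phosphoinositide 3-kinase (PI3K) that growth factor receptors recruit to the membrane through a regulatory subunit. The lipid it makes, PIP3, recruits the kinases PDK1 and AKT, and AKT activates mTORC1 and keeps FOXO transcription factors out of the nucleus. PIK3CA is often amplified or mutated in squamous lung cancer, and the airway cells closest to that tumor are the basal cells, which are known by keratins 5 and 14 and by the transcription factor p63.

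The 6 libraries held between 694898 and 1528287 counted reads, the fewest in HcRed replicate 2 and the most in PIK3CA replicate 2, so that 3 reads corresponded to between 1.96 and 4.32 CPM, the reads of a gene scaled to a common library size. The first principal component of log2 CPM held 43.1% of the variance and separated the lines. Levels below are CPM scaled by TMM normalization factors, and fold changes come from limma on voom-transformed counts with Benjamini-Hochberg adjustment over all genes tested. Markers that define other cell types were at or near 0 in both lines: 6 of 12 leukocyte markers (among them PTPRC, CD3E, CD4, MS4A1 and ITGAM), 3 of 8 endothelial markers (PECAM1, CDH5, EMCN), 4 of 10 fibroblast markers (COL1A2, COL3A1, PDGFRA, POSTN) and 5 of 12 neuroendocrine and alveolar markers (CALCA, SFTPC, SFTPA1, SFTPA2, AGER) had no read in any of the 6 libraries. The summed level of the whole leukocyte list was 11.3 to 23.3 CPM in HcRed and 19.5 to 23.2 CPM in PIK3CA samples, and that of the fibroblast list 11.6 to 31.2 and 12.7 to 16.6 CPM. The endothelial list summed to 1.42 to 1.94 and 3.64 to 4.88 CPM, and the neuroendocrine and alveolar list to 6.73 to 11.3 and 9.29 to 12.7 CPM. The 14 epithelial markers summed to 9340 to 9840 CPM in HcRed samples and to 6450 to 6850 CPM in PIK3CA samples, and the abundant noncoding and mitochondrial RNAs to 13800 to 15000 and 13400 to 14500 CPM.

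PIK3CA itself, which lies at chr3:178865902-178957881 in hg19, was measured at 89.2, 78.0 and 92.2 CPM in the HcRed samples and at 611, 510 and 546 CPM in the PIK3CA samples. The lowest PIK3CA sample was thus far above the highest HcRed sample, which fits the labels of the 6 libraries. The fold change was 6.26 (log2 2.65 ± 0.11 SE, n = 3 and 3, adjusted p = 1.47e-30 by limma). Reads of the cell's own gene and of the introduced sequence were counted together, so the share of each cannot be given.

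In all, 1228 of the 14278 genes passed the adjusted p threshold of 0.05 (8.6%), of which 684 were higher (4.79%) and 544 lower (3.81%) in PIK3CA cells. The change was more than 2-fold for 134 of the higher and 159 of the lower genes. The median log2 fold change over all genes tested was 0.004. In 13.2% of all genes tested every PIK3CA sample was above every HcRed sample, and in 10.9% every one was below.

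Other parts of the PI3K machinery changed little in RNA. Of 12 tested genes for PI3K catalytic and regulatory subunits, PIK3CA rose and PIK3C2B, a class II PI3K, fell (8.33% each). PIK3C2B was at 51.3, 36.9 and 52.4 CPM in HcRed and at 28.3, 30.5 and 10.9 CPM in PIK3CA samples, so that the groups were separate but PIK3CA replicate 3 was well below its fellows (log2 fold change −1.11 ± 0.24, adjusted p = 0.000598). The other catalytic subunit PIK3CB had a log2 fold change of 0.02 ± 0.13 and the main regulatory subunit PIK3R1 one of −0.24 ± 0.11 (adjusted p = 0.965 and 0.18). Among 38 tested genes of AKT and mTOR signaling, 1 rose and 1 fell (2.63% each, beside 4.79% and 3.81% of all genes). The latter was INPPL1, which encodes the lipid phosphatase SHIP2 (log2 −0.56 ± 0.16, adjusted p = 0.0138), and it was not called without HcRed replicate 2 or PIK3CA replicate 2 or with DESeq2. AKT1 (log2 −0.20 ± 0.12, adjusted p = 0.372) and MTOR (0.06 ± 0.09, adjusted p = 0.756) did not pass the test.

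MME showed the largest rise among the genes that averaged 10 or more reads and whose groups were separate. It encodes neprilysin (CD10), a peptidase on the cell surface that cuts signaling peptides, and lies at chr3:154741913-154901493 in hg19. MME was counted 2, 0 and 3 times in the HcRed samples and 23, 29 and 26 times in the PIK3CA samples, which is 1.68, 0 and 2.91 against 22.5, 19.2 and 23.6 CPM. Few reads stand behind the HcRed level, and it lies near the level of 3 reads. The log2 fold change was 3.54 ± 0.65 (adjusted p = 5.23e-05). Of 8 tested genes for peptidases of the cell surface, ANPEP (CD13, aminopeptidase N) also rose, from 11.8, 11.3 and 7.77 CPM to 23.4, 22.6 and 28.2 CPM (log2 1.23 ± 0.31, adjusted p = 0.00467, and 0.0565 without HcRed replicate 3). With DESeq2 the adjusted p of ANPEP was 0.079.

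PREX1, a PIP3-dependent exchange factor for the GTPase RAC, was at 1.68, 0 and 2.91 CPM in HcRed and at 19.5, 19.2 and 11.8 CPM in PIK3CA samples (log2 3.19 ± 0.67, adjusted p = 0.000444). PAK3, a kinase that acts below RAC and CDC42, was at 5.89, 1.42 and 1.94 against 21.5, 17.3 and 20.9 CPM (log2 2.53 ± 0.52, adjusted p = 0.000293). In both genes the HcRed samples held few reads, and HcRed replicate 1 was the highest of the 3 for PAK3. INHBA, the subunit of the ligand activin A, was at 1.68, 2.84 and 6.79 against 20.5, 21.2 and 18.2 CPM (log2 2.47 ± 0.48, adjusted p = 0.000152). TENM3, a transmembrane teneurin, was at 13.5, 18.4 and 4.85 against 53.7, 72.3 and 79.1 CPM (log2 2.68 ± 0.30, adjusted p = 2e-10). In each of these genes the lowest PIK3CA sample was above the highest HcRed sample, which the rule that chose them required.

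KRT7, SPARC and FBN2 rose with smaller errors than these genes. KRT7, a keratin of simple epithelia, was at 219, 183 and 189 CPM in HcRed and at 1050, 1020 and 871 CPM in PIK3CA samples, a 4.93-fold difference (log2 2.30 ± 0.08, adjusted p = 7.35e-34). SPARC, a matrix-binding glycoprotein, was at 52.2, 44 and 54.4 against 199, 202 and 216 CPM (4.01-fold, log2 2.0 ± 0.14). FBN2, which encodes the microfibril protein fibrillin-2, was at 14.3, 14.2 and 13.6 against 56.7, 70.3 and 64.6 CPM (4.46-fold, log2 2.16 ± 0.25). All 3 were tightly grouped within each line. The other genes among the 15 largest rises were the noncoding RNAs CCAT1 (log2 2.68 ± 0.45, and 1.44 without HcRed replicate 1) and MIR100HG (2.37 ± 0.49), GFPT2 of the hexosamine pathway (2.48 ± 0.50), TMEM156 (2.42 ± 0.54), the T-box repressor TBX3 (2.35 ± 0.55) and the guanine deaminase GDA (2.12 ± 0.42). Each of them had at most 14.2 CPM in any HcRed sample.

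TERT, the catalytic subunit of telomerase, was chosen after its values were seen, because AALE cells owe their immortality in part to introduced TERT. It was at 315, 342 and 282 CPM in HcRed and at 1200, 1140 and 1070 CPM in PIK3CA samples, again with no overlap (3.66-fold, log2 1.87 ± 0.07, adjusted p = 7.35e-34). Reads of an introduced copy and of the gene on chromosome 5 were counted together.

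**Figure D1:**
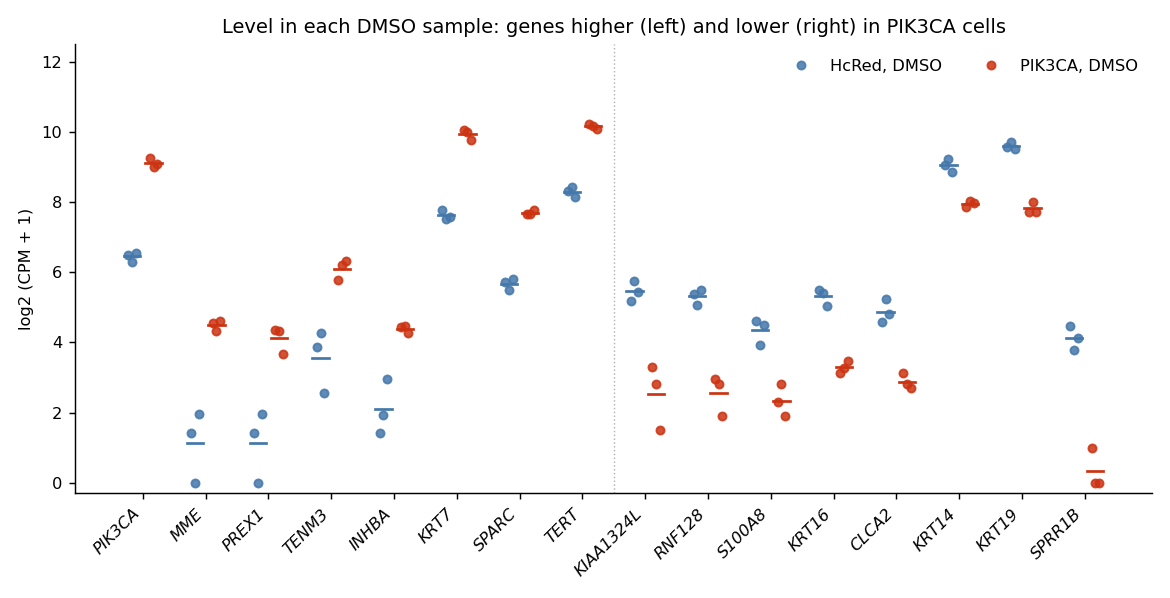
Level of 16 genes in each DMSO sample, as log2 of TMM-scaled CPM plus 1; blue points are the 3 HcRed samples, red points the 3 PIK3CA samples, and lines their means. PIK3CA, KRT7 and TERT are abundant and higher in each PIK3CA sample, MME and PREX1 rise from 0 to 2.91 CPM in HcRed samples, and SPRR1B has no read in 2 of the 3 PIK3CA samples.

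KIAA1324L was at 35.3, 52.5 and 42.7 CPM in HcRed and at 8.79, 5.97 and 1.82 CPM in PIK3CA samples, the largest fall by the same rule (8.16-fold lower, log2 −3.03 ± 0.39, adjusted p = 1.13e-08). RNF128, an E3 ubiquitin ligase known as GRAIL, was at 40.4, 32.6 and 43.7 against 6.84, 5.97 and 2.73 CPM (7.47-fold lower, log2 −2.90 ± 0.37, adjusted p = 1.15e-08). PIK3CA replicate 3 was the lowest sample for both genes, and no PIK3CA sample reached the HcRed range, as the rule required. KRT16, a stress keratin of squamous epithelia, was at 43.7, 41.1 and 32.0 against 7.81, 8.63 and 10 CPM (4.26-fold lower, log2 −2.09 ± 0.29, adjusted p = 1.58e-07). CLCA2, a p63-regulated gene of basal cells, was at 22.7, 36.9 and 27.2 against 7.81, 5.97 and 5.46 CPM (4.15-fold lower, log2 −2.05 ± 0.34, adjusted p = 9.93e-06). SERPINB13, an inhibitor of cathepsins found in squamous epithelium, was at 43.7, 34.0 and 53.4 against 7.81, 13.3 and 11.8 CPM (3.89-fold lower, log2 −1.96 ± 0.28, adjusted p = 1.53e-07). These 3 genes too were chosen among those in which the samples of the lines did not overlap.

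S100A8 and S100A9 encode the subunits of calprotectin, an antimicrobial protein of stressed squamous epithelium. S100A9 was at 90.9, 90.8 and 95.1 CPM in HcRed and at 17.6, 29.2 and 20.9 CPM in PIK3CA samples (3.99-fold lower, log2 −2.0 ± 0.19, adjusted p = 9.96e-13). S100A8 was at 23.6, 14.2 and 21.4 against 3.91, 5.97 and 2.73 CPM (4.46-fold lower, log2 −2.16 ± 0.42, adjusted p = 0.000161). The HcRed samples agreed closely for S100A9 and less so for the rarer S100A8. The others of the 15 fell by between 1.77 and 2.60 on the log2 scale. They included the actin bundler ESPN, the mucin-type glycosyltransferase GALNT5, C3orf14, the transcription factors EYA2 and KLF8, the actin nucleator COBL, and POF1B, an actin-binding protein of epithelial junctions.

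Most of the listed basal cell genes were lower. This list and the other lists were chosen with earlier results of these data known, so their shares are descriptions. Of 25 genes for basal epithelial identity tested, 18 were lower (72%) and 1 was higher in PIK3CA cells, where 3.81% of all genes were lower and 4.79% higher, and the median log2 fold change was −0.61 against 0.004 over all genes. KRT17 was at 1270, 1410 and 1240 CPM in HcRed and at 439, 538 and 486 CPM in PIK3CA samples (log2 −1.40 ± 0.06, adjusted p = 2.33e-30). KRT14, the keratin that pairs with KRT5 in basal cells, was at 531, 600 and 462 against 232, 258 and 248 CPM (log2 −1.08 ± 0.08, adjusted p = 9.43e-18). KRT5, the most abundant of them, was at 4130, 4040 and 3990 against 2670, 2900 and 3100 CPM (log2 −0.49 ± 0.03, adjusted p = 6.55e-22). All HcRed samples were above all PIK3CA samples for the 3 keratins, and the size of the fall differed from 1.41-fold for KRT5 to 2.64-fold for KRT17. TP63, the gene of the basal transcription factor p63, was at 178, 183 and 229 against 163, 131 and 148 CPM. The groups lay close together, and the fall of TP63 (log2 −0.43 ± 0.11, adjusted p = 0.00312) missed the threshold without HcRed replicate 3 (adjusted p = 0.0838) and without PIK3CA replicate 2 (0.0801). With DESeq2 the fall of TP63 missed it as well (adjusted p = 0.0598). Reads of KRT6A, KRT6B, KRT6C, KRT14, KRT16 and KRT17 can be split between near-identical copies in counting.

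Other called members of the basal list encode proteins of cell adhesion. The desmosome genes DSG3 (desmoglein 3, log2 −0.90 ± 0.09), PKP1 (plakophilin 1, −1.05 ± 0.09) and JUP (plakoglobin, −0.68 ± 0.08) and the hemidesmosome genes COL17A1 (−0.55 ± 0.07) and ITGA6 (−0.32 ± 0.05) were lower. PKP1, for example, was at 421, 450 and 338 CPM in HcRed and at 195, 202 and 174 CPM in PIK3CA samples. LAMB3, which encodes a chain of laminin-332, fell from 358, 393 and 395 to 231, 245 and 227 CPM (log2 −0.69 ± 0.08). CDH1, the epithelial cadherin, fell slightly, from 532, 545 and 559 to 416, 429 and 422 CPM (log2 −0.36 ± 0.07, adjusted p = 3.68e-05). Fewer cells of a given type and less RNA per cell cannot be told apart in these bulk samples.

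Genes of the cornified envelope, which squamous cells build as they differentiate, were called lower in 10 of 22 tested, of 40 listed. That is 45.5% beside 3.81% of all genes, and none was called higher. The log2 fold change was negative in all 22, of which 12 did not pass the test, and the median was −1.14. With DESeq2, 6 were called lower. SPRR1B, a precursor of the envelope, had 25, 9 and 17 reads in HcRed samples and 1, 0 and 0 in PIK3CA samples. The pooled level was 63.3-fold lower in PIK3CA cells with a 95% counting interval from 10.9 to 2550, and limma gave an adjusted p of 1.7e-05. SBSN, which encodes suprabasin, had 27 reads in HcRed and 1 in PIK3CA samples, a ratio of 33.5 (5.53 to 1370), and the protease gene KLK7 had 29 and 3, a ratio of 12 (3.72 to 61.6). DSG1, the desmoglein of upper squamous layers, had 5, 5 and 2 reads in HcRed and none in PIK3CA samples, so it was at least 4.97-fold lower when 3 reads are allowed over the PIK3CA group (adjusted p = 0.0128, and 0.0859 without PIK3CA replicate 2). With DESeq2 DSG1 just missed the threshold (adjusted p = 0.05). Intervals and limits cover counting error only. SPRR1B and SBSN passed the count minimum only through their HcRed reads. The direction of such members followed from that filter, which favored the negative signs and the low median of this list. In addition, 3 genes of secretory cells fell as well among 10 tested, PI3 (elafin, log2 −1.70 ± 0.44), AGR2 (−1.62 ± 0.51) and SLPI (−0.86 ± 0.25), which reached at most 35.3 CPM in any sample. The count of 3, which is 30% of those tested, was 1 without HcRed replicate 1 and 0 with DESeq2.

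Keratins of simple epithelia moved apart from each other. KRT8 was at 95.1, 90.8 and 109 CPM in HcRed and at 235, 227 and 229 CPM in PIK3CA samples (2.33-fold, log2 1.22 ± 0.11, adjusted p = 4.95e-14). Its partner KRT18 was at 104, 115 and 101 against 206, 224 and 217 CPM (2.04-fold, log2 1.03 ± 0.11, adjusted p = 1.59e-11). KRT19 went the other way, from 752, 834 and 725 to 211, 257 and 209 CPM (3.35-fold lower, log2 −1.74 ± 0.08, adjusted p = 1.76e-29). Each of these changes was many times the spread within a line.

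Mesenchymal and matrix genes were more often higher: 8 of 24 tested rose (33.3%) and 2 fell (8.33%), beside 4.79% and 3.81% of all genes. The median log2 fold change was 0.36. VIM, the intermediate filament of mesenchymal cells, was at 45.4, 53.9 and 53.4 CPM in HcRed and at 168, 153 and 144 CPM in PIK3CA samples (3.06-fold, log2 1.61 ± 0.14, adjusted p = 3.33e-14). FN1, which encodes fibronectin, was at 750, 820 and 762 against 1660, 1540 and 1410 CPM (1.98-fold, log2 0.98 ± 0.05, adjusted p = 5.18e-25). For these genes the samples of each line lay within a narrow range. CDH2, the cadherin of neural and mesenchymal cells, was at 8.41, 7.09 and 4.85 against 22.5, 27.9 and 10.9 CPM, with PIK3CA replicate 3 nearest to HcRed (log2 1.49 ± 0.40, adjusted p = 0.0078, and 0.0728 or 0.095 without HcRed replicate 3 or PIK3CA replicate 2). With DESeq2 the adjusted p of CDH2 was 0.0648. SNAI2, the repressor Slug, fell (70.7, 80.8 and 72.8 against 34.2, 53.8 and 35.5 CPM, log2 −0.82 ± 0.17, adjusted p = 0.000344), as did the collagen chain COL1A1 (log2 −1.10 ± 0.37, adjusted p = 0.0466), which is also a fibroblast marker and was not called without HcRed replicate 1, HcRed replicate 2, PIK3CA replicate 2 or PIK3CA replicate 3. COL1A1 was also not called with DESeq2 or with all 24 DMSO samples fitted. The count of 8 was 5 without HcRed replicate 1, HcRed replicate 3, PIK3CA replicate 1 or PIK3CA replicate 2, and 4 with DESeq2. Of 26 genes of activin and TGF-beta signaling, INHBA, TGFB1 (log2 0.51 ± 0.14) and ID1 (1.01 ± 0.25) rose (11.5%) and none was called lower. With DESeq2, 1 was called higher, and 1 was called lower without HcRed replicate 2.

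FOXO genes and their targets tended to be lower. Of 27 tested, 7 fell (25.9%, beside 3.81% of all genes) and none was called higher. The log2 fold change was negative in 21, and the median was −0.31. TXNIP, which restrains glucose uptake, was at 167, 237 and 223 CPM in HcRed and at 76.2, 77 and 105 CPM in PIK3CA samples (2.39-fold lower, log2 −1.26 ± 0.12, adjusted p = 1.91e-12). FOXO1 was at 40.4, 58.1 and 33.0 against 15.6, 23.2 and 22.7 CPM (log2 −0.98 ± 0.23, adjusted p = 0.00187). In both genes the groups were separate, by a wide margin for TXNIP. FOXO3 (log2 −0.40 ± 0.13), the stress gene SESN1 (−0.74 ± 0.21), SESN3 (−0.45 ± 0.11), the receptor ERBB3 (−0.67 ± 0.18) and the death ligand TNFSF10 (−1.82 ± 0.54) were the others. The count of 7 was 2 without PIK3CA replicate 2, 4 without HcRed replicate 3 and 2 with DESeq2, and TNFSF10, with 4 to 14 reads in HcRed samples, lost its call without either of these libraries, HcRed replicate 1 or PIK3CA replicate 3. ERBB3 and TNFSF10 were not called with DESeq2 (adjusted p = 0.192 and 0.202). CDKN1B, another FOXO target that holds back the cell cycle, had a log2 fold change of −0.25 ± 0.16 (adjusted p = 0.397).

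The promoters of the named genes were searched for the forkhead motif GTAAACA, to which FOXO factors bind, and the AP-1 motif TGACTCA, on both strands in the 250 bases before each RefSeq start. Of the 30 genes with the largest changes, 19 had a promoter in the table. The forkhead letters were found in PIK3CA and TENM3 and the AP-1 letters in SERPINB13 and TMEM156, beside shares of 2.98% and 4.2% of all 35116 promoters. The shares are per promoter, whereas a named gene counts if any of its promoters matched, so the units differ. The PIK3CA reads include the introduced sequence, whose promoter the sources do not give. Among the other genes named, TXNIP held the forkhead motif, DDIT3 the AP-1 motif and SPRR1B both motifs. The stretches below, of 60 bases each in the direction of the gene, are shown because these genes are among those that rose or fell, and capitals mark the motif, which reads TGAGTCA or TGTTTAC where it lies on the opposite strand. Coordinates are those of GRCh38.p14, not of hg19, and a match is a description of the letters and not a bound site.
TXNIP, chr1:145996671-145996730, minus strand: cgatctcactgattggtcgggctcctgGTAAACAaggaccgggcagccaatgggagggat
SPRR1B, chr1:153031035-153031094, plus strand: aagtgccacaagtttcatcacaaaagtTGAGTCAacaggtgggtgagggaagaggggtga
SPRR1B, chr1:153030953-153031012, plus strand: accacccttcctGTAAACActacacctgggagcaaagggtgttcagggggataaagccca
TENM3, chr4:182448904-182448963, plus strand: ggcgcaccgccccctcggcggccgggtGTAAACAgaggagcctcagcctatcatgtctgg
TMEM156, chr4:39032458-39032517, minus strand: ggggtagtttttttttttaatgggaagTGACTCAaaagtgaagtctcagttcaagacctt
PIK3CA, chr3:179148181-179148240, plus strand: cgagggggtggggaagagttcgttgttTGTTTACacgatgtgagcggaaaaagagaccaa
The TXNIP match lies 124 bases before the start, the AP-1 and forkhead matches of SPRR1B 141 and 238 bases before it, and those of TENM3, TMEM156 and PIK3CA 85, 81 and 149 bases before theirs.

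Genes of mitosis changed by small amounts. Of 28 tested, 14 rose (50%, beside 4.79% of all genes) and none was called lower. The log2 fold change was positive in 27, and the median was 0.22. TPX2, which nucleates spindle microtubules, was at 626, 655 and 582 CPM in HcRed and at 1010, 1060 and 1020 CPM in PIK3CA samples (1.67-fold, log2 0.74 ± 0.06, adjusted p = 1.38e-17). The kinase gene AURKA was at 282, 257 and 290 against 403, 447 and 446 CPM (1.56-fold, log2 0.64 ± 0.08, adjusted p = 2.17e-09). Both lines were narrow in range for these genes. MKI67, the proliferation marker, differed by 1.09-fold (2060, 1960 and 2090 against 2150, 2230 and 2310 CPM, log2 0.13 ± 0.04, adjusted p = 0.011). The 28 genes summed to 11300 to 12100 CPM in HcRed samples, and genes as abundant as MKI67 passed the test at small changes. The share of all genes, which includes rare ones, is thus not a like background, here or for the abundant basal and sterol lists. With DESeq2, 7 of the 28 were called higher. TPX2 lies on chromosome 20 between 30 and 40 Mb, where the median log2 fold change of all genes was 0.36, and AURKA between 50 and 60 Mb, where it was 0.09. Of 29 genes of DNA replication and E2F, the ribonucleotide reductase subunit RRM2 (log2 0.64 ± 0.07) and E2F7 rose and the replication clamp PCNA fell (−0.25 ± 0.08, not called with DESeq2 or without HcRed replicate 1, HcRed replicate 3, PIK3CA replicate 2 or PIK3CA replicate 3). Those shares, 6.9% higher and 3.45% lower, were near those of all genes (4.79% and 3.81%).

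Feedback and early genes of the ERK pathway were higher in 8 of 25 tested (32%, beside 4.79% of all genes). None was called lower, and the median was 0.35. ETV5, an ETS factor induced by ERK, was at 29.4, 45.4 and 33.0 CPM in HcRed and at 68.4, 67.0 and 47.3 CPM in PIK3CA samples (log2 0.82 ± 0.19, adjusted p = 0.00175). EGR1, an early response factor, was at 66.5, 135 and 122 against 227, 158 and 140 CPM (log2 0.78 ± 0.14, adjusted p = 6.04e-05). The groups came close to each other in both genes, and EGR1 varied widely within each line. The phosphatases DUSP6 (0.82 ± 0.24) and DUSP4 (0.66 ± 0.17), the inhibitor SPRED1 (0.68 ± 0.15), ETV1 (1.03 ± 0.34), PHLDA1 (0.93 ± 0.20) and the receptor EPHA2 (0.48 ± 0.13) were the other 6. DUSP6 lost its call without HcRed replicate 1 (adjusted p = 0.211) or PIK3CA replicate 2 (0.212), and with DESeq2 (0.266). The count of 8 was 4 without HcRed replicate 1, 5 without PIK3CA replicate 2 and 2 with DESeq2.

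Metabolic genes changed by small amounts in both directions. Of 33 genes of sterol and fatty acid synthesis, 10 rose (30.3%) and 2 fell (6.06%), with a median of 0.10. Of all genes 4.79% were higher and 3.81% lower. SCD, the stearoyl-CoA desaturase, was at 2580, 2650 and 2800 CPM in HcRed and at 3060, 3050 and 3000 CPM in PIK3CA samples (1.14-fold, log2 0.18 ± 0.03, adjusted p = 6.9e-06). The fatty acid elongase ELOVL6 rose by 1.55-fold (log2 0.63 ± 0.12), while the desaturase FADS2 fell (−0.47 ± 0.10). The count of 10 was 6 without HcRed replicate 1 or PIK3CA replicate 2 and 4 with DESeq2, and the count of 2 that fell was 4 with scaling by library size alone. Of 30 genes of glycolysis and the hypoxia response, 7 rose (23.3%) and 3 fell (10%). The lactate transporter SLC16A3 rose from 144, 135 and 123 to 223, 207 and 182 CPM (log2 0.60 ± 0.11), and LDHA, which makes lactate, by 1.25-fold (0.33 ± 0.06), whereas PFKFB4 (−1.09 ± 0.27), PFKL and the glucose transporter SLC2A1 (−0.39 ± 0.12) fell. The count of 7 was 3 without PIK3CA replicate 2 and 3 with DESeq2, with which the 3 that fell became 0. Of 28 genes of the ATF4 amino acid response, 6 rose (21.4%), and 2 with DESeq2. Among the 6 were the cystine transporter SLC7A11 (134, 115 and 170 against 231, 233 and 229 CPM, log2 0.72 ± 0.10, adjusted p = 2.83e-07) and CEBPB (0.92 ± 0.18). DDIT3 had the largest rise of that list, but its groups overlapped, since HcRed replicate 2 was at 18.4 CPM and PIK3CA replicate 1 at 16.6 CPM (log2 1.61 ± 0.38, adjusted p = 0.00239, and 0.0509 without HcRed replicate 1). With DESeq2 the adjusted p of DDIT3 was 0.21. The iron storage genes FTL (log2 0.80 ± 0.09) and FTH1 (0.41 ± 0.07) were among 5 of 30 NRF2 targets that rose (16.7%), while GCLC, the rate-limiting enzyme of glutathione synthesis, fell (−0.51 ± 0.12). The share called lower, 3.33%, was near the 3.81% of all genes.

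Other lists held few calls, to be read beside 4.79% of all genes higher and 3.81% lower. Of the Notch list 16.7% fell, and of the p53 list 4.17%, near the share of all genes. In the interferon list 8.82% rose, in the matrix protease list 6.67% rose and 13.3% fell, and in the ERBB list 7.14% moved each way. NOTCH3 (log2 −1.20 ± 0.22), the ligand JAG2 (−0.59 ± 0.15) and HES2 (−1.54 ± 0.37) fell among 18 genes of Notch signaling. NOTCH3 was at 49.6, 45.4 and 45.6 CPM in HcRed and at 17.6, 20.6 and 22.7 CPM in PIK3CA samples, with no overlap. Of 24 p53 targets 1 was called, SESN1. Of 34 interferon-stimulated genes IFITM3, IRF1 and HERC5 rose, and the count of 3 was 1 without HcRed replicate 1 or HcRed replicate 2 and 0 with DESeq2. Of 17 genes of the IL-1 family, CXCL chemokines and NF-kB none was called by limma with the mean count above 1, and 2 were called higher and 1 lower with all genes that had a read. Of 15 genes of matrix proteases and their inhibitors 1 rose and 2 fell (TIMP2, log2 0.74, MMP28, −1.03, and TIMP3, −0.52), with 4 higher by edgeR. Among 14 ERBB receptors and ligands ERBB3 fell and the feedback inhibitor ERRFI1 rose (log2 0.40), the former not without PIK3CA replicate 2 and the latter not without HcRed replicate 1, HcRed replicate 2 or PIK3CA replicate 3. Neither was called with DESeq2. The call of SESN1 was lost without HcRed replicate 1 or PIK3CA replicate 2, and MMP28 and TIMP3 lost theirs without HcRed replicate 1, HcRed replicate 3, PIK3CA replicate 1 or PIK3CA replicate 2. DESeq2 called none of SESN1, MMP28 and TIMP3.

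**Figure D2:**
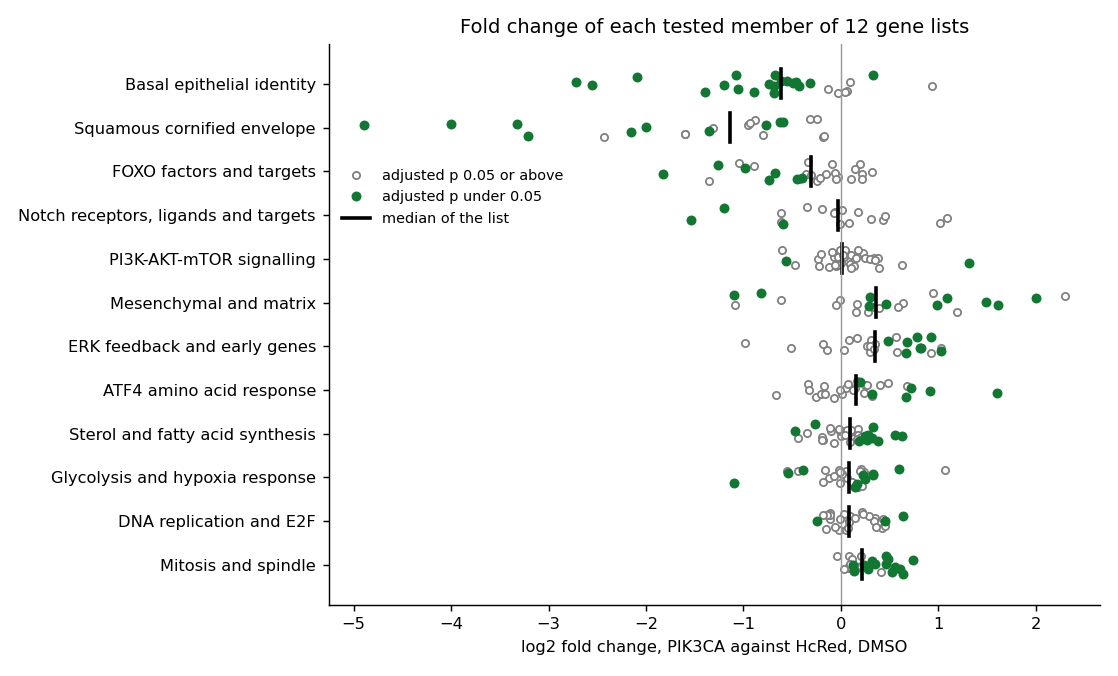
Log2 fold change of PIK3CA against HcRed samples, both with DMSO, for each tested member of 12 gene lists; filled points passed an adjusted p of 0.05 and black bars are list medians. Basal and cornified envelope genes lie mostly left of 0 (medians −0.61 and −1.14), mitosis genes mostly right of it (median 0.22), and genes of AKT and mTOR signaling near 0.

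The 18 samples of the same lines exposed to CSC, BaP or NNK are separate from the 6 DMSO samples and show whether the named genes differed there too. With CSC, 1504 of 14595 genes passed the test (10.3%), 5.41% higher and 4.89% lower. With BaP 1008 of 14161 passed (7.12%, of all genes 3.88% higher and 3.23% lower), and with NNK 927 of 14001 (6.62%, 3.14% higher and 3.49% lower). All 30 named genes had the same direction in each of the 3 exposures. The 15 falls were called with each of the carcinogens, and the 15 rises were called in 15, 13 and 10 cases with CSC, BaP and NNK. TMEM156 and TBX3 were not called with BaP, and GFPT2, TMEM156, MIR100HG, TBX3 and GDA were not called with NNK. PIK3CA had log2 fold changes of 2.76 with CSC, 2.39 with BaP and 2.74 with NNK. MME, at 3.54 with DMSO, had 2.22, 1.67 and 1.87 in the exposed samples (adjusted p = 0.000135, 0.0167 and 0.0187). S100A8 was further apart with carcinogens than with DMSO, at −3.55, −3.32 and −4.25 against −2.16.

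The difference between the mean PIK3CA effect under the 3 carcinogens and that under DMSO was tested directly over 24 samples. Of 14391 genes 0 passed the adjusted threshold with limma (0%), 650 had an unadjusted p under 0.05, which is 4.52% of the genes, and edgeR called 0 with 621 under 0.05. The differences in size given above for MME and S100A8 therefore did not pass. Group counts for the lists were 15, 14 and 16 lower of 25 basal genes with CSC, BaP and NNK. Of the cornified envelope genes 17 of 26, 7 of 21 and 12 of 20 were lower. Mesenchymal genes were higher in 10 of 26, 10 of 23 and 8 of 23. Mitosis genes were higher in 5, 3 and 10 of 28, and FOXO genes lower in 3, 3 and 2 of 27, fewer than the 14 and 7 with DMSO. Genes of sterol and fatty acid synthesis were higher in 6, 7 and 4 of 33 and lower in 4, 1 and 6, beside 10 and 2 with DMSO. The ERK genes were higher in 5, 7 and 4 of 25 and lower in 2, 1 and 3, beside 8 and 0 with DMSO. Whether any of these counts differ from those with DMSO was not tested.

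**Figure D3:**
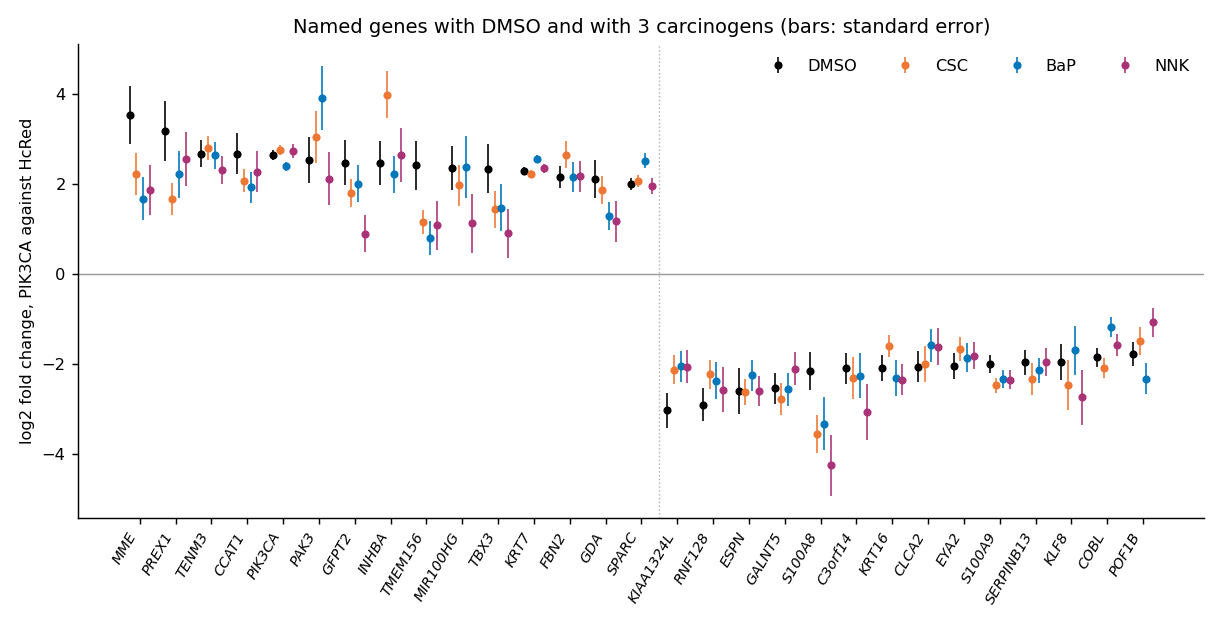
Log2 fold change of PIK3CA against HcRed samples for 29 of the 30 named genes, with DMSO (black), CSC (orange), BaP (blue) and NNK (purple); points are estimates from 3 against 3 samples and bars their standard errors. The 15 genes on the left are above 0 and the others on the right below 0 with each treatment, and the DMSO values, which chose the genes, are the largest for MME and PREX1.

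Since HcRed was the reference for each of these contrasts, the PIK3CA samples were also set against the mean of the 6 other lines with DMSO. These are 18 samples of lines with other constructs, and the contrast shares its 3 PIK3CA samples with the one against HcRed. Its p-values measure the spread between samples within a line and not that between lines. It called 3042 of 14502 genes (21%), 1975 higher (13.6%) and 1067 lower (7.36%), and 1997 without PIK3CA replicate 2. PIK3CA had a log2 fold change of 2.56 in it, and its level in PIK3CA samples (log2 CPM 9.13 ± 0.12, SD, n = 3) was above that of all other samples, the next being the CDKN2A knockout line at 7.38 ± 0.06 and FGFR1 at 6.72. HcRed, GFP, NRF2, NRG1 and FAT1 lay between 6.19 and 6.48 and did not stand apart beyond their spread, apart from FAT1, whose highest sample at 6.30 was below the lowest HcRed and GFP samples at 6.32.

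MME did not single out the PIK3CA line. Its level was highest in the CDKN2A knockout line (log2 CPM 4.74 ± 0.08), then in PIK3CA (4.57 ± 0.14) and FGFR1 (4.31 ± 0.31), and lowest in HcRed (1.67 ± 0.69), with the ranges of CDKN2A and PIK3CA and of PIK3CA and FGFR1 overlapping. Against the 6 other lines its log2 fold change was 1.24 (adjusted p = 1.28e-06), beside 3.54 against HcRed. TENM3 likewise was lower in HcRed than in each sample of the 6 other lines, and its log2 fold change against them was 0.73 beside 2.68.

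KRT7, SPARC, FBN2, PAK3, GFPT2, MIR100HG, CCAT1, KRT18 and TERT were higher in the 3 PIK3CA samples than in every sample of the 6 other lines. KRT7 and TERT varied over the lines by far more than the PIK3CA to HcRed difference. The order of KRT7 was PIK3CA (log2 CPM 9.95), NRF2 (9.39), FGFR1 (8.87), HcRed (7.64), NRG1 (6.95), GFP (3.79), FAT1 (2.54) and CDKN2A (2.10), in which the last 3 overlapped in part. TERT ran in almost the same order, from 10.2 in PIK3CA, 9.44 in NRF2, 8.71 in FGFR1, 8.30 in HcRed and 7.37 in NRG1 to 5.19 in GFP, 3.97 in CDKN2A and 3.29 in FAT1. The 5 lines with overexpression vectors were thus above the 3 lines of the CRISPR arm in both genes. The part of line history in the PIK3CA to HcRed difference cannot be told apart from that of PIK3CA, since each construct is represented by 1 line.

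Among the falls, KRT19, RNF128, ESPN, CLCA2, EYA2, SERPINB13, COBL, TXNIP and FOXO1 were lower in the PIK3CA samples than in each of the 18 samples of the other lines. KRT19 was at log2 CPM 7.84 ± 0.17 in PIK3CA cells and at 9.0 to 9.70 in the 7 other lines. TXNIP was at 6.45 ± 0.25 and at 7.29 to 8.62 in the other lines. S100A9 and KRT14 differed: HcRed (log2 CPM 6.56 and 9.06) and NRF2 (7.46 and 9.36) were high, and PIK3CA (4.6 and 7.97) was within the range of the rest. Their log2 fold changes against the 6 other lines were −0.28 (adjusted p = 0.378) and 0.06 (adjusted p = 0.66), beside −2.0 and −1.08 against HcRed. S100A8, also high in HcRed and NRF2, had 0.30 against the 6 other lines (adjusted p = 0.681). KRT6A, high in HcRed (log2 CPM 10.99), NRG1 (10.97) and NRF2 (10.71), had −0.09 (adjusted p = 0.0772). For SPRR1B each HcRed sample was above all samples of the 6 other lines, and the contrast with those lines was −1.51 (adjusted p = 0.175). As for the lists in that contrast, 13 of 25 basal genes and 7 of 20 cornified envelope genes were lower, and 25 of 28 mitosis genes and 15 of 23 mesenchymal genes were higher, beside 7.36% of all genes lower and 13.6% higher. The ATF4 list, with 6 higher and none called lower of 28 and a median of 0.16 against HcRed, had 3 higher, 6 lower and a median of −0.16 (19 of 28 negative) against the 6 other lines.

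**Figure D4:**
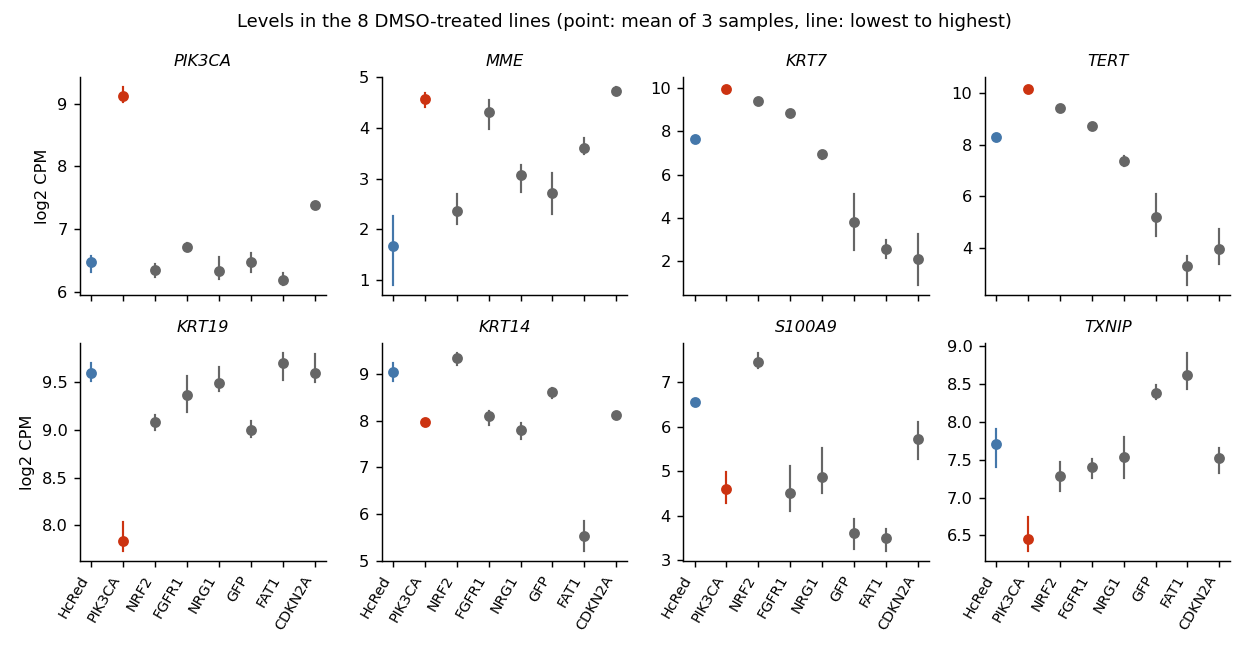
Log2 CPM of 8 genes in the 8 lines with DMSO; points are means of 3 samples, vertical lines run from the lowest to the highest sample, red is PIK3CA and blue HcRed, and the vertical scales differ between genes. PIK3CA and KRT19 stand apart in PIK3CA cells, MME is as high in CDKN2A knockout cells, KRT7 and TERT fall from the vector lines to the GFP, FAT1 and CDKN2A lines, and KRT14 and S100A9 are high in HcRed and NRF2 cells.

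Some of the changed genes lie together in the genome. This was noticed in these data and then counted, with GENCODE gene positions on hg19 and the 10148 genes that averaged 10 or more reads. Of 199 windows of 10 Mb with at least 20 such genes, 22 had a median log2 fold change beyond 0.2 in size, and the middle 90% of windows lay between −0.17 and 0.23. The window of chromosome 20 from 60 Mb to its end had a median of −0.95, and 25 of its 31 genes were called lower, with all 31 negative. The windows of chromosome 20 from 30 to 40 Mb and from 40 to 50 Mb had medians of 0.36 and 0.35, with 32 of 82 and 24 of 61 genes called higher. The window of chromosome 11 from 120 to 130 Mb had a median of 0.60 with 15 of 34 called higher. MIR100HG lies in that last window.

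Of the genes at the end of chromosome 20, 3 are given by sample, each of which fell by more than the window's median. SS18L1, a chromatin remodeling subunit, was at 66.5, 59.6 and 51.4 CPM in HcRed and at 17.6, 16.6 and 19.1 CPM in PIK3CA samples (log2 −1.73 ± 0.22, adjusted p = 7.84e-09). CABLES2 was at 25.2, 38.3 and 29.1 against 9.77, 10.6 and 10 CPM (−1.50 ± 0.29), and UCKL1, a uridine kinase, at 26.9, 34.0 and 20.4 against 3.91, 11.9 and 13.6 CPM (−1.46 ± 0.33). These 3 genes were chosen after their values were seen, and none of them overlapped between the lines. PREX1, whose rise was larger than the window's median, and EYA2, which fell, lie in the window of chromosome 20 from 40 to 50 Mb.

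The separate CSC, BaP and NNK samples had the same shifts. The window at the end of chromosome 20 had medians of −0.92, −1.03 and −0.94, and that of chromosome 11 had 0.70, 0.63 and 0.76. In the contrast with the 6 other lines, which shares the PIK3CA samples, they were −0.87 and 0.57, with 29 of 30 genes of the former called lower. DNA copy number was not measured in these samples, and its part in the result was not tested.

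**Figure D5:**
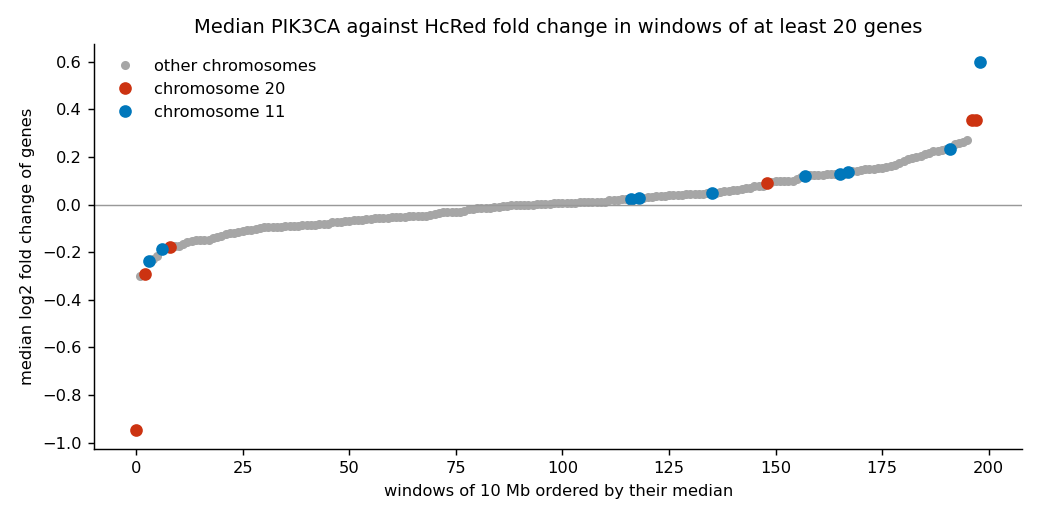
Median log2 fold change of PIK3CA against HcRed samples, both with DMSO, in 199 windows of 10 Mb with at least 20 genes of mean count 10 or more, ordered by the median. The end of chromosome 20 (red, −0.95) lies far below the other windows, and 1 window of chromosome 11 (blue, 0.60) and 2 of chromosome 20 (0.36 and 0.35) are the highest.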

How the data were processed

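Sparse full length RNA-seq of AALE cells was analysed from the counts the authors deposited, whole numbers of reads per RefSeq gene without normalization. Per the labels and methods, single-end reads were trimmed (cutadapt 1.12), checked (FastQC 0.11.5), aligned to hg19 with STAR 2.5.2b and counted with featureCounts after ribosomal depletion. Groups come from the sample labels. Genes with a mean count above 1 over the samples compared were tested with limma 3.58.1 on voom-transformed counts with TMM factors (edgeR 4.0.16, R 4.3.3), 2-sided, Benjamini-Hochberg adjusted at 0.05, fitted to the samples compared. Log2 CPM of single lines used a prior count of 2. Library depth ranged from 694898 to 1528287 reads in the 6 DMSO samples and from 432015 to 1653947 in the 18 exposed samples.

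The genes named are PIK3CA, MME, the 15 largest rises and falls among the called genes that averaged 10 or more reads in separate groups, and members of 29 lists from general knowledge. The members and lists were chosen with earlier results of these data known. TERT, CYP1A1, CYP1B1, SS18L1, CABLES2 and UCKL1 were added after their values were seen. Positions, length and GC content come from GENCODE on GRCh37 (24309 symbols, 86.9%). Promoters are RefSeq's on GRCh38.p14. The fits were repeated with DESeq2 1.42.0 (no independent filtering) or its size factors, the quasi-likelihood test of edgeR, library size alone, other filters, all 24 DMSO samples in 1 fit, a replicate block, a GC and length correction, and each sample left out. The tests were tested on simulated data. No sample pair of a line agreed within sampling noise. Values of a few members are not reported here.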

Additional observations from a re-analysis of the deposited data

Results flagged for a closer look

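CYP1A1, the oxidase that the aryl hydrocarbon receptor induces to act on polycyclic hydrocarbons, was the 1 gene past the threshold for a difference of the PIK3CA effect between carcinogens and DMSO, and only with a filter that it passes through its induced levels with carcinogens, since it was near 0 with DMSO. Among the 10198 genes that averaged 10 or more reads the difference was −3.48 ± 0.66 on the log2 scale (carcinogens minus DMSO, adjusted p = 0.01 by limma). Among the genes with a mean count above 1 the difference was −3.46 ± 0.96 with an adjusted p of 0.999. CYP1A1 had 2, 0 and 0 reads in HcRed and 6, 8 and 6 in PIK3CA samples with DMSO. With CSC it was at 445, 360 and 221 CPM (by library size) in HcRed and at 118, 132 and 145 CPM in PIK3CA samples, and with BaP at 238, 261 and 337 against 103, 136 and 149 CPM. With NNK the lines overlapped, at 38.1, 32.9 and 46.3 against 32.2, 42.5 and 52.9 CPM. CYP1B1, a related oxidase, was lower in PIK3CA cells with each treatment, with log2 fold changes of −1.08 with DMSO, −1.62 with CSC, −1.48 with BaP and −1.02 with NNK. Both genes were chosen after their values were seen, and the effect in DMSO alone, 2.66 for CYP1A1 (adjusted p = 0.0318), was lost with 1 sample left out in 5 of 6 cases.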

How the results depend on the processing

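The 30 named genes were refitted in 9 alternative settings and with each of 6 samples left out. This gave 448 results of 1 gene in 1 setting, of which each kept its direction and 447 the call. The exception was CCAT1 with DESeq2 (log2 1.96, adjusted p = 0.209). These genes were chosen as large, called and separate in the same 6 samples that the refits reuse. The choice thus favored this stability, which does not extend to the other called genes. The number of genes called with DMSO, 1228, was 460 with DESeq2 (253 higher and 207 lower), between 965 and 1410 with the other alternatives, and 821 to 1072 when 1 sample was left out, with 402 higher without HcRed replicate 1 and 347 lower without PIK3CA replicate 2. The value of 965 leaves out the 22 shifted windows, an alternative chosen after seeing the data. The replicate block gave 1410 calls, but same-numbered samples did not deviate together (correlations from −0.01 to 0.02), so the numbers do not pair the samples. Scaling by library size moved the share of calls that were higher from 55.7% to 47.5%. The GC and length correction, on the 93.7% of genes with known values, gave 1249 calls against 1181 for the same genes without it. Left-out samples gave 942 to 1338 calls with CSC (lowest without PIK3CA replicate 1), 566 to 1153 with BaP (634, 566 and 650 without HcRed replicate 1, PIK3CA replicate 1 and PIK3CA replicate 2), 470 to 844 with NNK (470 and 593 without HcRed replicate 1 and HcRed replicate 2), and 1997 to 3070 against the 6 other lines (1997 without PIK3CA replicate 2). The difference between carcinogens and DMSO had 0 calls, and 1 among genes that averaged 10 or more reads. The causes were not tested. Genes under about 5 CPM rest on a few reads in each sample.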
